A study of Mus musculus with 6 samples.

Results

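The protein disulfide isomerases and the oxidase that works with them, which build disulfide bonds in the endoplasmic reticulum (ER), were followed in activated mouse B cells with and without *Tent5c*. The 10 genes were taken by name from the 54446 genes of the deposited values, and no measured value entered the rule, although earlier results of these data were known when the list was drawn up: *P4hb*, *Pdia3*, *Pdia4*, *Pdia5*, *Pdia6*, *Txndc5*, *Txndc11*, *Erp29*, *Erp44* and *Ero1lb*, the older symbol of *Ero1b*. Of these 10 genes, 9 passed the minimum for testing (a mean of at least 10 normalized counts over the 6 libraries), and *Pdia5* did not.

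Secreted proteins receive their disulfide bonds in the ER. A protein disulfide isomerase hands its own disulfide, held by the pair of cysteines of a thioredoxin-like active site, to a client protein, or breaks and re-forms wrong bonds, and ERO1 oxidases recharge the isomerase with oxygen as the final acceptor. Antibodies depend on this machinery, since bonds within and between chains hold heavy and light chains together, and plasma cells expand it during differentiation.

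The libraries came from naive B cells that were isolated by negative selection from the spleens of mice of the strain mixed C57BL/6J X CBA, aged 12 to 15 weeks, and cultured for 7 days with LPS at 20 µg/ml and IL-4 at 20 ng/ml. A group of 3 libraries carried the genotype label TENT5C KO and another of 3 the label WT, and both groups received the same stimulation. TENT5C is a non-canonical poly(A) polymerase. The KO allele was made with Cas9 and the same guide RNA as the catalytic mutant of the study. Its sequence change is not given in the sources used here. Each replicate number was a KO and a WT mouse of the same litter (pairs 1, 2 and 3 in the following). Total RNA was depleted of rRNA and sequenced by strand, and the whole culture was sequenced, so that B cells at several stages share a library.

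Depth ranged from 5393558 to 6793520 fragments on genes per library, and a tested member held between 325 and 7486 fragments in a library. *Tent5c* transcript was not lower in the KO-labelled libraries, with 1993, 993 and 1170 normalized counts in pairs 1, 2 and 3 against 1255, 767 and 1585 in the WT-labelled ones, so the groups are named by their labels and every direction below rests on them. All 8 mature B cell markers were above the minimum in these libraries, as were 9 of 10 plasma cell markers, 1 of 10 T cell markers, 3 of 10 myeloid markers and 0 of 7 erythroid markers. The summed mature B cell markers lay between 54980 and 62872 normalized counts, the summed T cell markers between 31.4 and 95.1, with the highest sum in the WT library of pair 3, and the summed myeloid markers between 67.7 and 166.

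The catalytic cysteines of most of these genes could be read in their coding sequences, and no other genes were searched for them. The principal Gencode transcripts (release vM21, GRCm38) were searched for 2 cysteine codons with 2 codons between them directly after a tryptophan codon, the form of the thioredoxin-like active site. *Pdia4*, *Pdia5* and *Txndc5* had 3 such pairs, *P4hb*, *Pdia3* and *Pdia6* had 2, *Txndc11* had 1, and *Erp29* and *Erp44* had 0. *Ero1lb*, which is no isomerase, had 2 cysteine pairs of that spacing and none after a tryptophan codon. The spliced sites of 4 members are shown, with the cysteine codons in capitals. Of these, *Pdia4* and *Pdia6* were lower in the KO library of every pair, and *Txndc5* and *Txndc11* only in that of pair 3. A link between the sites and the levels was not tested. The windows of *Pdia4* lie on the minus strand at chr6:47807193-47808179 (exons 2 and 3), chr6:47803892-47806510 (exons 4 and 5) and chr6:47796746-47796769 (exon 10), and those of *Pdia6* on the plus strand at chr12:17270533-17273963 (exons 2 and 3) and chr12:17278622-17278836 (exons 6 and 7). Those of *Txndc5* lie on the minus strand at chr13:38523460-38528192 (exons 1 and 2), chr13:38510193-38510216 (exon 5) and chr13:38503542-38504728 (exons 8 and 9), and that of *Txndc11* on the minus strand at chr16:11084270-11084293 (exon 10). A window that covers 2 exons is printed without its intron.
Pdia4 site 1: ccatggTGTggacacTGCaagcag
Pdia4 site 2: ccgtggTGTggacacTGCaagaaa
Pdia4 site 3: ccctggTGTgggcacTGCaagcag
Pdia6 site 1: ccatggTGTggtcacTGCcagagg
Pdia6 site 2: ccgtggTGTggacacTGCaaaaac
Txndc5 site 1: ccctggTGTggacacTGCcagcgg
Txndc5 site 2: ccgtggTGCggtcacTGCaaagct
Txndc5 site 3: ccgtggTGTggccacTGTaagaat
Txndc11 site 1: cagtggTGTggctttTGCccgtct

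Upstream of the genes, the unfolded protein response elements fell on different members. Promoter windows (250 bases before and 50 after the transcription start, RefSeq, GRCm38.p6) were found for 9 of the 10 genes, all but *Erp29*, and gave 13 windows. They were searched on both strands for ERSE, the ER stress response element (CCAAT, 9 bases of any kind, then CCACG), for ERSE-II (ATTGG, 1 base, CCACG), for UPRE, the element bound by XBP1 (TGACGTGG), and for the plain CCAAT box, which every ERSE also contains. ERSE was in the windows of *Pdia6* and *Ero1lb*, beside 0.137% of the 27025 genes in the promoter table, and UPRE in those of *Txndc5* and *Txndc11*, beside 0.714%. No window of a member held ERSE-II, which 0.0444% of genes hold, and a CCAAT box was in the windows of 7 of the 9 members, beside 41.1% of genes. Counted by window, 8 of 13 held a CCAAT box, beside 37.4% of all 32851 windows. A match of letters says nothing of whether a factor binds there.

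The windows with ERSE or UPRE are printed, since these elements are rare among all genes, with the element in capitals. They lie at chr12:17266339-17266638 (plus strand) for *Pdia6*, with the element 98 to 80 bases before the start, at chr13:12565633-12565932 (plus strand) for *Ero1lb*, with the element on the opposite strand 201 to 183 bases before the start, at chr13:38527865-38528164 (minus strand) for *Txndc5*, 138 to 131 bases before the start, and at chr16:11134483-11134782 (minus strand) for *Txndc11*, 102 to 95 bases before it. The *Txndc5* window is 1 of 3 in the table and the *Txndc11* window 1 of 2, and the other windows of these genes held no UPRE.
Pdia6: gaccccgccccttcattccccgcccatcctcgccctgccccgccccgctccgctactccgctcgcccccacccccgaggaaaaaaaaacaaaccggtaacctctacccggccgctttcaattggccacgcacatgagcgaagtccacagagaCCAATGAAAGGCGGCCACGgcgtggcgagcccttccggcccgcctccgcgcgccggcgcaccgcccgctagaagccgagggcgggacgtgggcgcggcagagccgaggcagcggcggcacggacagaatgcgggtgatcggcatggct
Ero1lb: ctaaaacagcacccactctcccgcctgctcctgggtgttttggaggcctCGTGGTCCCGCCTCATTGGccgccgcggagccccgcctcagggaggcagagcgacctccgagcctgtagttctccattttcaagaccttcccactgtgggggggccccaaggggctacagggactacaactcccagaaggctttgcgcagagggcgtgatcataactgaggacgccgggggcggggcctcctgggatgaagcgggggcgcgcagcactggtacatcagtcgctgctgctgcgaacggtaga
Txndc5: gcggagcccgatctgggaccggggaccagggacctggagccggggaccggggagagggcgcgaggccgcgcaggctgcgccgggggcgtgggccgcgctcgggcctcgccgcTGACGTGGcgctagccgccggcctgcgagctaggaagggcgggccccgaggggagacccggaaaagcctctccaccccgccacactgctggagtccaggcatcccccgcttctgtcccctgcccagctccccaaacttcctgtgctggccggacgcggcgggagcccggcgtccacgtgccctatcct
Txndc11: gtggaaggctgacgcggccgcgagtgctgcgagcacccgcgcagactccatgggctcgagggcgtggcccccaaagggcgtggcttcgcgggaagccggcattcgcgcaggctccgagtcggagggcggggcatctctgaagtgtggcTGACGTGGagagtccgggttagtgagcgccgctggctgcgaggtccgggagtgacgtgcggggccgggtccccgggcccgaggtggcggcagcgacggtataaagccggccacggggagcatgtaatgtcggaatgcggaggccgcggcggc

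Between the libraries labelled KO and WT, the 4 abundant isomerases *P4hb*, *Pdia3*, *Pdia4* and *Pdia6* and the retention factor *Erp44* were lower in the KO library of every pair, by fitted log2 fold changes of −0.38 to −0.18. *Erp29* and *Ero1lb* had log2 fold changes of −0.10 and −0.07, and *Txndc5* and *Txndc11* were higher in the KO library of pairs 1 and 2 and lower in that of pair 3. No member passed an adjusted *p* of 0.05, the lowest being 0.693 for *Pdia4* in limma, and 0% of the 12322 genes tested passed. At an unadjusted *p* under 0.05, 5 of the 9 members tested were lower and 0 higher, while 3.03% of all genes tested were lower at that limit. Of the 9 members, 5 were lower in every pair, beside 13.1% of all genes tested. The median log2 fold change of the members was −0.18, beside 0.00067 over all genes tested, and within pairs 1, 2 and 3 their median log2 ratio was −0.078, −0.13 and −0.27. Without the littermate pairs in the model, *Pdia6* was the only member under an unadjusted limma *p* of 0.05 (0.0201). In these whole cultures, fewer cells of a type and less RNA per cell cannot be told apart.

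**Figure D1:**
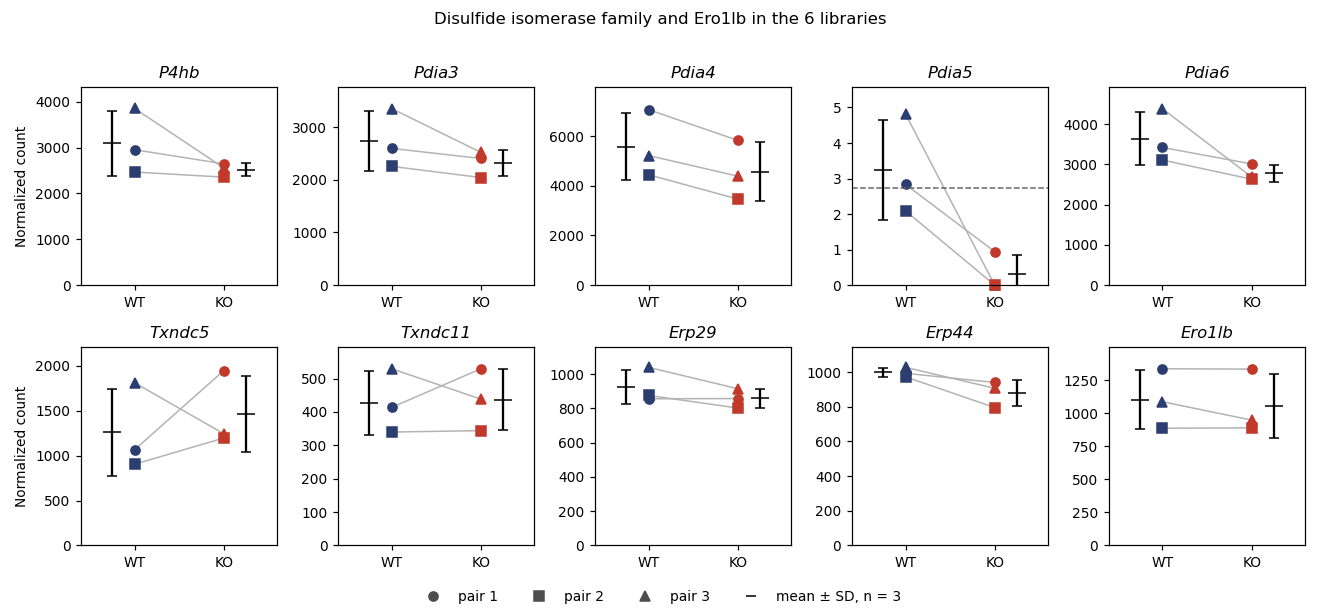
Normalized count (linear axes from 0) of each of the 10 genes in the 3 WT-labelled (blue) and 3 KO-labelled (red) libraries, with grey lines joining littermates, marker shapes for the pairs and bars for the mean ± SD (n = 3). Lines slope down to KO in all 3 pairs for P4hb, Pdia3, Pdia4, Pdia6 and Erp44 and cross for Txndc5 and Txndc11, and the dashed line for Pdia5 marks 2.72 normalized counts, the lowest level that 3 fragments correspond to in a library.

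*Pdia6* (ENSMUSG00000020571, chromosome 12 of GRCm38, 17266545 to 17284770), which encodes P5, an isomerase that binds the chaperone BIP, had 3010, 2631 and 2684 normalized counts in the KO-labelled libraries of pairs 1 to 3 and 3419, 3106 and 4381 in the WT-labelled ones. Every KO library lay below every WT library, and the distance was widest in pair 3. The KO to WT ratio was 0.880, 0.847 and 0.613, the means were 2775 ± 205 and 3635 ± 665 (SD, n = 3), and the fitted log2 fold change was −0.38 (standard error 0.11, 95% interval −0.64 to −0.12). It was the largest difference among the members, with an adjusted *p* of 0.911 in limma and 0.353 in DESeq2. Its log2 fold change was −0.47, −0.45 and −0.21 without pair 1, 2 or 3, with adjusted *p*-values of 0.0720, 0.984 and 0.816 in limma.

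*Pdia4* (ENSMUSG00000025823, chromosome 6, 47796141 to 47813430) encodes ERp72, an isomerase found in complexes with BIP and unassembled Ig heavy chains. It had 5833, 3467 and 4390 normalized counts in the KO-labelled libraries of pairs 1 to 3, and 7070, 4447 and 5221 in the WT-labelled ones. The groups overlapped and the pairs stood at different levels, and in each pair the KO library was below its littermate by a similar factor. The ratios were 0.825, 0.780 and 0.841, the narrowest spread over pairs among the lower members. The log2 fold change was −0.30 (standard error 0.059, 95% interval −0.44 to −0.15), with an unadjusted *p* of 0.0020 in limma and 0.000839 in DESeq2 and adjusted values of 0.693 and 0.185. Leaving out any pair moved it only between −0.32 and −0.26.

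*P4hb* (ENSMUSG00000025130, chromosome 11, 120560298 to 120573253), the gene of protein disulfide isomerase itself, which is also a subunit of prolyl 4-hydroxylase, had 2644, 2354 and 2554 normalized counts in the KO-labelled libraries and 2952, 2465 and 3852 in the WT-labelled ones. The WT library of pair 3 stood far above the other 5, and the groups overlapped. The ratios were 0.896, 0.955 and 0.663, and limma fitted −0.27 on the log2 scale (adjusted *p* = 0.970, standard error 0.11). Without pair 3 it was −0.11.

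*Pdia3* (ENSMUSG00000027248, chromosome 2, 121413775 to 121438687) encodes ERp57, which calnexin and calreticulin bring to glycoproteins and which is part of the MHC class I loading complex. Its normalized counts were 2407, 2045 and 2523 in the KO-labelled libraries of pairs 1 to 3 and 2599, 2257 and 3357 in the WT-labelled ones. As for *P4hb*, the groups overlapped and the WT library of pair 3 was the highest. The ratios were 0.926, 0.906 and 0.752, and the fitted log2 fold change −0.22 (adjusted *p* = 0.970 in limma, standard error 0.077), or −0.13 without pair 3.

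*Erp44* (ENSMUSG00000028343, chromosome 4, 48193323 to 48279558) encodes a protein that retrieves unassembled IgM and ERO1 oxidases from the early Golgi. It had 941, 796 and 907 normalized counts in the KO-labelled libraries and 993, 973 and 1028 in the WT-labelled ones, and every KO library lay below every WT library. With *Pdia6* it was 1 of 2 tested members whose groups did not overlap in that direction, beside 3.44% of all genes tested. Its WT libraries were the closest to each other of any member, with 998 ± 27.7 (SD, n = 3), against 881 ± 75.9 in KO. Its log2 fold change came to −0.18 (standard error 0.069, adjusted *p* = 0.970 in limma), and its unadjusted *p* was 0.0356 in limma but 0.134 in DESeq2. In DESeq2, the other 4 of the 5 members stayed under an unadjusted *p* of 0.05. Of the 24684 genes with a *p* there, 0.786% were lower at that limit. These genes include ones below the minimum for testing, so this share and the 3.03% of limma rest on different sets of genes.

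*Erp29* (ENSMUSG00000029616, chromosome 5, 121428590 to 121452506) encodes a redox-inactive relative that lacks the cysteine pair, as its coding sequence here also shows. It had 857, 802 and 914 normalized counts in the KO-labelled libraries and 856, 875 and 1039 in the WT-labelled ones. The groups overlapped, and the ratios of 1.00, 0.916 and 0.880 gave a log2 fold change of −0.10 with a 95% interval from −0.27 to 0.061. *Ero1lb* (ENSMUSG00000057069, chromosome 13, 12565874 to 12611396), the oxidase that recharges the isomerases, had 1333, 888 and 947 against 1335, 886 and 1086. Littermates were nearly equal in pairs 1 and 2, with ratios of 0.998 and 1.00, and pair 3 had 0.872. Its log2 fold change was −0.07 (95% interval −0.23 to 0.10), and without pair 3 it was 0.00078.

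*Txndc5* (ENSMUSG00000038991, chromosome 13, 38500079 to 38528824), which encodes ERp46, an isomerase abundant in plasma cells, had the widest spread of pair ratios of all members. It had 1949, 1197 and 1244 normalized counts in the KO-labelled libraries of pairs 1 to 3 and 1067, 904 and 1812 in the WT-labelled ones. The KO library was the higher of the pair in pairs 1 and 2 and the lower in pair 3, with ratios of 1.83, 1.32 and 0.686. The log2 fold change of 0.24 had a standard error of 0.24 and a 95% interval from −0.33 to 0.81 (adjusted *p* = 0.970 in limma). It was −0.07 without pair 1 and 0.64 without pair 3, where its unadjusted *p* was 0.000200 and its adjusted *p* 0.183.

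*Txndc11* (ENSMUSG00000022498, chromosome 16, 11074911 to 11134650) encodes a membrane-bound thioredoxin-domain protein of the ER that works in the degradation of misfolded glycoproteins. Its normalized counts were 529, 344 and 439 in the KO-labelled libraries and 414, 340 and 530 in the WT-labelled ones, with ratios of 1.28, 1.01 and 0.828. It followed *Txndc5* in the order of the pairs at a smaller size, and its log2 fold change was 0.03 (95% interval −0.26 to 0.33). *Pdia5* (ENSMUSG00000022844, chromosome 16, 35397312 to 35490873), which encodes PDIR, was barely detected, with 1, 0 and 0 fragments in the KO-labelled libraries and 3, 2 and 4 in the WT-labelled ones. A count of 0 allows up to 3 fragments, and 5 of the 6 libraries were at or under that number, so no fold is given.

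**Figure D2:**
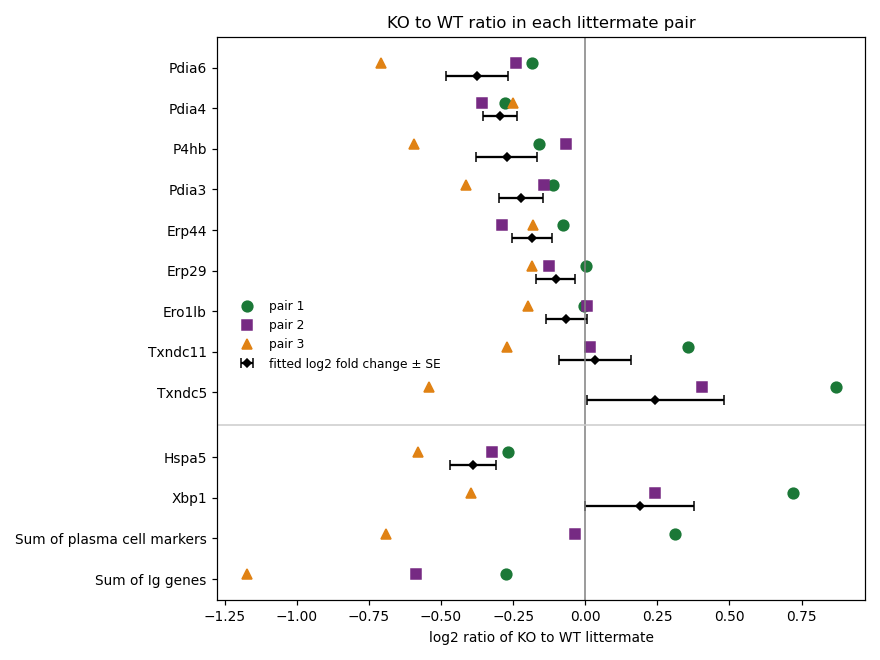
log2 ratio of the KO to the WT littermate in each of the 3 pairs (coloured shapes) and fitted log2 fold change ± SE (black diamonds) for the 9 tested members, and below the line for Hspa5, Xbp1, the summed plasma cell markers and the summed Ig genes. The ratios of Pdia4 lie between −0.36 and −0.25, those of Txndc5 run from −0.54 in pair 3 to 0.87 in pair 1, and pair 3 is the lowest pair of 7 of the 9 members (all but Pdia4 and Erp44) and of all 4 quantities below the line.

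The pairs differed in their content of plasma cell transcripts, which in KO relative to WT was highest in pair 1 and lowest in pair 3. The ratios of *Txndc5*, *Txndc11*, *Pdia3*, *Pdia6* and *Erp29* stood in the same order of pairs, as did those of *Hspa5* and of the summed Ig genes, while those of *P4hb*, *Pdia4*, *Erp44* and *Ero1lb* did not. The summed level of the 10 plasma cell markers, of which *Tnfrsf17* had no more than 2 fragments in a library, ranged from 14454 to 23916 normalized counts in the KO-labelled libraries and from 14826 to 28902 in the WT-labelled ones. The log2 ratio of the sums, KO to WT, was 0.31, −0.04 and −0.69 in pairs 1, 2 and 3. *Xbp1*, which encodes the transcription factor that drives ER expansion in plasma cells, had ratios of 0.72, 0.24 and −0.40 on the log2 scale, and those of *Txndc5* were 0.87, 0.40 and −0.54. In pair 1, the plasma cell sum was higher in the KO library, with *Xbp1* at 6743 normalized counts against 4092 in WT. In that pair, 2 of the 10 markers, *Mzb1* and *Slamf7*, were lower in KO, as were 6 of the 9 tested members. The part of plasma cell content in the results of the members was not tested.

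Because a ratio between members of the same library does not depend on the scaling of libraries, the members were also set against each other. Of the 36 ratios between tested members, 15 had the same sign in every pair and 21 did not. These ratios share members and libraries, and nothing is read from their number. *Txndc5* per *Pdia6* was higher in the KO library of each pair, by 1.05, 0.64 and 0.16 on the log2 scale in pairs 1, 2 and 3, and *Txndc5* per *P4hb* was as well. The other 6 ratios of *Txndc5* were higher in pairs 1 and 2 and lower in pair 3, by as much as −0.36 per *Erp44*. *Txndc11* per *Pdia6* was higher by 0.54, 0.26 and 0.43. *Ero1lb* per *Pdia3*, the oxidase against ERp57, was higher by 0.11, 0.15 and 0.21, one of the steadiest of these ratios (0.16 ± 0.054, SD, n = 3 pairs). With 3 pairs, an exact permutation test of such a ratio cannot give a *p* under 0.25.

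Together, the 10 genes accounted for 0.232% to 0.344% of a library's fragments. Their summed normalized counts were 16877 ± 2501 (SD, n = 3) in the KO-labelled libraries and 19758 ± 3137 in the WT-labelled ones, with ratios of 0.942, 0.893 and 0.744 in pairs 1, 2 and 3. The summed Ig genes, the main disulfide-bonded clients of these enzymes in a plasma cell, had ratios of 0.827, 0.666 and 0.444. In each pair, the family sum was therefore closer to that of its littermate than the Ig sum was, and the family sum per Ig count was 1.14, 1.34 and 1.68 times that of the WT littermate.

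Per kilobase of annotated exon, the scale on which genes can be compared, *Pdia4* was the most abundant member, with a mean of 2114 normalized counts per kilobase over the 6 libraries. *P4hb* (980), *Pdia6* (856) and *Pdia3* (806) formed a group below it. *P4hb* was above *Pdia6* in all 6 libraries on this scale and *Pdia6* above *Pdia3* in 5 of 6. With the length of the principal transcript, which was chosen after seeing the data, *Pdia6* came before *P4hb*, so the order of these genes depends on the length used. *Txndc5* (303) and *Erp44* (275) followed, and *Txndc5* was the higher in only 4 of 6 libraries. *Ero1lb* (162), *Erp29* (98.3) and *Txndc11* (49.0) were each below the member before them in all 6 libraries, and *Pdia5* was last with 0.643. Of the family's summed level per length, *Pdia4* made up 36.5% ± 3.8 in KO and 37.9% ± 6.4 in WT, and *Txndc5* 6.26% ± 0.91 in KO and 4.51% ± 1.24 in WT (SD, n = 3). The share of *Txndc5* was higher in the KO library of pairs 1 and 2 and lower in that of pair 3.

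**Figure D3:**
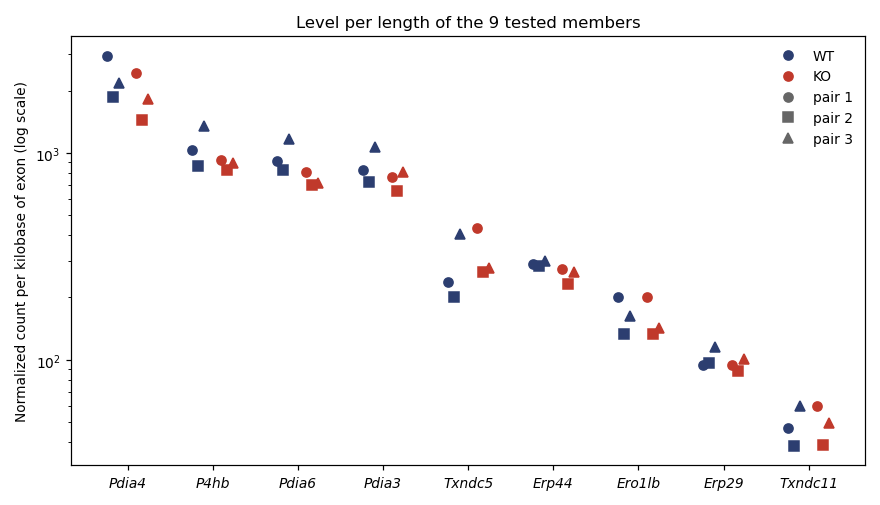
Normalized count per kilobase of annotated exon (log axis) of the 9 tested members in each library, WT-labelled in blue and KO-labelled in red, with marker shapes for the littermate pairs. Pdia4 stands highest and Txndc11 lowest, and the points of Txndc5 and Erp44 overlap.

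Over the 6 libraries, the members tracked different genes. These are correlations of log2 levels over 6 libraries that come as 3 littermate pairs and share a scaling, given as a description. *P4hb* and *Pdia3* followed each other (Pearson's *r* = 0.963), and *P4hb*, *Pdia3*, *Pdia6* and *Erp44* followed *Hspa5*, the gene of BIP, with *r* of 0.932, 0.934, 0.920 and 0.895. *Pdia4* followed *Ero1lb* (*r* = 0.913) more closely than it followed *P4hb* (0.504). *Txndc5* and *Txndc11* followed *Xbp1* with *r* of 0.967 and 0.973. With *Prdm1* they had 0.861 and 0.945, and with *Jchain* 0.766 and 0.865, where *P4hb* had 0.911. The other tested members had *r* with *Xbp1* between 0.308 (*Erp44*) and 0.627 (*Pdia3*), with *Pdia6* at 0.408 and *Ero1lb* at 0.560. With *Hspa5*, *Ero1lb* had 0.586, *Txndc11* 0.675 and *Pdia4* 0.748, and with *Prdm1*, *Ero1lb* had 0.820. *Txndc11* also had the highest *r* of any tested member with the mean of the others (0.860), so these groups were not sharp. Whether the promoter elements bear on these levels was not tested. *Hspa5* itself had log2 ratios of −0.27, −0.32 and −0.58 in pairs 1, 2 and 3, all negative like those of *Pdia6* and *Pdia4*. Its adjusted *p* was 0.0306 in DESeq2 and 0.693 in limma. The genes whose log2 level followed the mean of the members most closely, among 7897 genes that averaged 100 normalized counts or more, were *Clptm1l* (*r* = 0.997), *Nsf* (0.995), *Derl3* (0.991), *Igkj5*, *Sppl2b*, *Cln3*, *Ighv1-15*, *Pon3*, *Ccr4* and *Trabd* (0.988).

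**Figure D4:**
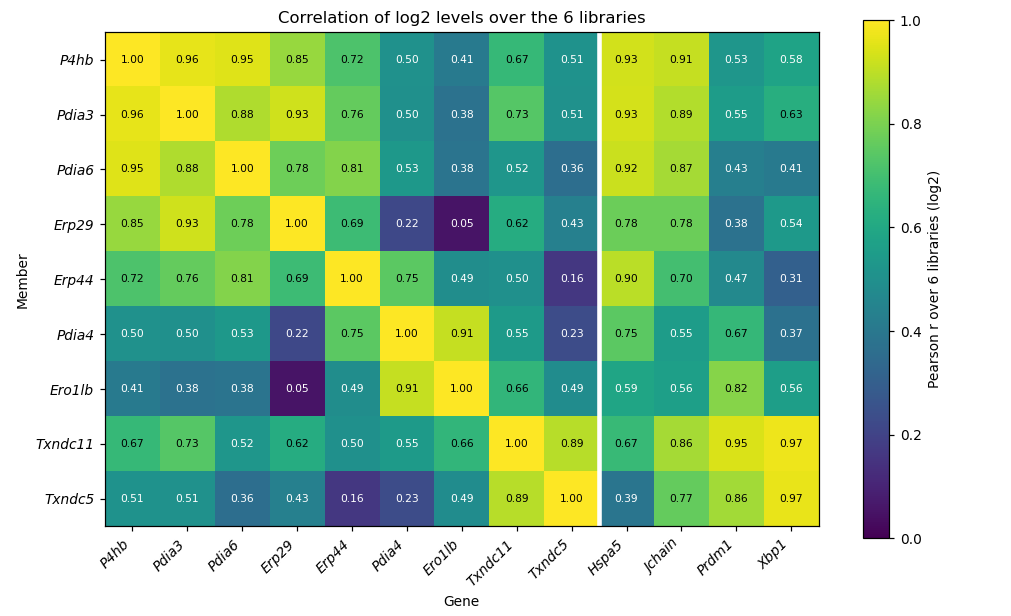
Pearson's r of log2 levels over the 6 libraries between the 9 tested members (rows and left columns) and with Hspa5, Jchain, Prdm1 and Xbp1 (right of the white line), with colour from 0 to 1. Among the columns right of the line, P4hb, Pdia3, Pdia6 and Erp44 are brightest with Hspa5 (0.895 to 0.934), and Txndc5 and Txndc11 with Xbp1 (0.967 and 0.973).

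The other genes of disulfide formation were compared in 4 lists that held no member. Over the 28 of 38 genes that passed the minimum, 20 had a negative log2 fold change, beside 6135 of all 12322 genes tested. At an unadjusted *p* under 0.05, 6 of the 28 were lower and 0 higher, beside 3.03% of all genes tested that were lower, and without the littermate pairs in the model these were 0 oxidants, 1 redox-associated protein and 1 partner. The median log2 fold change of other ER oxidants (6 of 8 genes tested) was −0.0027, with 1 gene lower at that limit. This was *Ero1l*, the gene of the other ERO1 oxidase, ERO1 alpha, which had 536, 462 and 451 normalized counts in the KO-labelled libraries and 642, 473 and 706 in the WT-labelled ones, a log2 fold change of −0.31 (adjusted *p* = 0.970 in limma). Beside it, *Ero1lb* had −0.07, and the difference between the oxidases was not tested. *Prdx4*, a peroxiredoxin that uses peroxide to oxidize isomerases, had the lowest value of the list (−0.41), which pair 3 dominated with the lowest log2 ratio by far (296 normalized counts in KO against 595 in WT), and *Qsox2*, a sulfhydryl oxidase, had the highest (0.31), higher in the KO library of every pair.

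Other members of the isomerase family (9 of 15 genes tested, 5 without a fragment) had a median of −0.016, and 0 were under an unadjusted *p* of 0.05 in limma. Their values ran from −0.15 for *Tmx1*, a transmembrane thioredoxin-related protein, to 0.30 for *Erp27*, a non-catalytic relative with only 4.8 to 19.1 normalized counts per library.

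Redox-associated ER proteins (7 of 7 tested) had a median of −0.19, and all 7 values were negative. *Selenom*, a selenoprotein of the ER, had 7.55, 5.72 and 6.36 normalized counts in the KO-labelled libraries and 15.1, 12.5 and 31.3 in the WT-labelled ones, without overlap, and a log2 fold change of −1.35 (adjusted *p* = 0.957 in limma). *Creld2*, an ER stress-induced protein that binds isomerases, had one of −0.41, and *Mzb1*, a cofactor of BIP and GRP94 in plasma cells that also stands among the plasma cell markers, one of −0.33. *Sumf1*, the sulfatase-activating enzyme, was nearest to 0 at −0.07.

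Partners of the isomerases (6 of 8 tested) had a median of −0.22, with *Ppib* and *Calr* lower at an unadjusted *p* under 0.05. *Calr*, the gene of calreticulin, which works with ERp57, had 6899, 6027 and 7773 normalized counts in the KO-labelled libraries and 7875, 7717 and 10315 in the WT-labelled ones, a log2 fold change of −0.32 (adjusted *p* = 0.737 in limma). Its ratio in each pair was below 1, with log2 values of −0.19, −0.36 and −0.41, beside −0.11, −0.14 and −0.41 for its partner *Pdia3*. *P4ha1*, whose product forms prolyl 4-hydroxylase with that of *P4hb*, had 0.01, beside −0.27 for *P4hb*. *Ppib*, a prolyl isomerase found with *Pdia6* and other chaperones, had −0.44, and it was the only gene of these lists with an adjusted *p* under 0.05 in DESeq2 (0.0494, against 0.693 in limma).

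**Figure D5:**
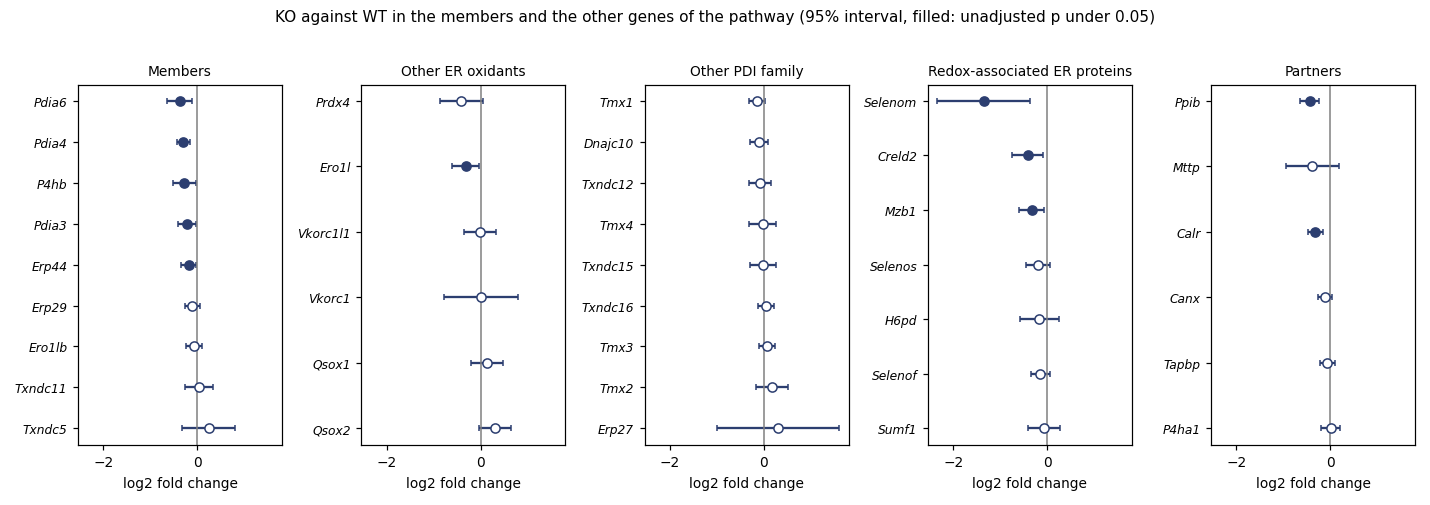
Fitted log2 fold change (KO against WT, points) with 95% interval (bars) for the 9 tested members and the 28 tested genes of the other lists, filled where the unadjusted p was under 0.05. Filled points lie left of 0 in every panel that has any: 5 among the members, 1 among the oxidants, 3 among the redox-associated proteins and 2 among the partners, and none in the other isomerase genes.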

How the data were processed

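RNA of 3 KO and 3 WT cultures was sequenced. The authors aligned reads to GRCm38 (mm10) with STAR 2.6.1a, counted strand-specific fragments on Gencode vM19 exons with featureCounts (Subread 1.6.3, mapping quality of at least 10) and scaled the counts with the size factors of DESeq2. These normalized counts were deposited as a signal per gene with a fixed step per library, and 100% of the values above 0 were whole fragments (tolerance 0.01). No column was left out (0). Names and positions came from Gencode vM21, which matched 54409 of 54446 identifiers. Such scaling hides any change that most transcripts have in common. Fragments shared by overlapping genes are not counted, and *Pdia4*, *Pdia5*, *Erp44* and *Ero1lb* each hold a small RNA gene on their strand.

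The test was limma 3.58.1 (R 4.3.3; trend, two-sided, Benjamini-Hochberg) on log2(normalized count + 1), over the 12322 genes averaging 10 or more, with the littermate pair in the model. It understates changes of low genes. Mice of a replicate number were littermates, which is where the pairing comes from. The deviations of their libraries had correlations over genes of 0.328, 0.685 and 0.170 in pairs 1, 2 and 3. By the chi-square of the difference per gene, littermates were the closest libraries in pairs 1 and 2 (5.62 and 4.44). In pair 3, the KO library was closer to the WT library of pair 1 (10.7) than to its littermate (16.2). Shared deviation was thus weak in pair 3, and the pairing there rests on the replicate number. Alternatives were DESeq2 1.42.0 and edgeR 4.0.16 on the recovered fragments, other scalings, filters and pseudocounts, no pair term and left-out pairs. The steps were tested on simulated data.

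Named genes were all members, the genes of 4 pathway lists with an unadjusted *p* under 0.05 or the highest or lowest fold change, the 10 genes most like the members' mean (Pearson's *r*), *Tent5c*, *Hspa5* and Ig genes. The members and lists were chosen with earlier results of these data known. *Xbp1*, *Tnfrsf17*, *Jchain* and *Prdm1* stand among the plasma cell markers. Intervals of fragments cover counting error only. Protein sequences were not used here.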

Additional observations from a re-analysis of the deposited data

How the results depend on the processing

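Genes with an adjusted *p* under 0.05 numbered 0 in limma and edgeR, and 22 lower and 1 higher in DESeq2, with no member among them. With 1 pair left out, 0 to 168 genes were lower and 0 to 3 higher, the most without pair 1. The 5 members under an unadjusted *p* of 0.05 became 1 without the replicate block and 2 to 5 with 1 pair left out (3 without pair 2, 2 without pair 3). Without the block, the genes under that limit went from 1 to 0 among other oxidants, 3 to 1 among redox-associated proteins and 2 to 1 among partners, and no adjusted call changed. The members' median stayed between −0.24 and −0.11 with 1 pair left out. The median of the other isomerase genes was 0.018 under library-total scaling, and that of the partners −0.11 with a mean of at least 50. With 1 pair left out, log2 fold changes ran from −0.069 to 0.64 for *Txndc5*, −0.13 to 0.19 for *Txndc11*, −0.10 to 0.00078 for *Ero1lb*, −0.44 to 0.78 for *Erp27*, −0.19 to 0.11 for *Sumf1* and −0.022 to 0.045 for *P4ha1*. *Creld2* passed an adjusted *p* of 0.05 without pair 1 (0.0366) and was −0.21 without pair 3 (adjusted *p* 0.999), where *Mzb1* was −0.16, *Ero1l* −0.15 and *Prdx4* −0.11. Of the values of single genes, 263 kept direction and side of the threshold, 6 changed direction and 2 passed the threshold. What caused them was not tested. Searching the forward strand alone left ERSE in *Pdia6* and UPRE in both of its members.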
